A study of Mus musculus with 9 samples.

Results

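The 10 genes described here carry out and control antigen presentation by major histocompatibility complex (MHC) class I. They are the heavy chains H2-K1 and H2-D1, the light chain B2m, the peptide transporter subunits Tap1 and Tap2, the loading factor Tapbp, the transactivator Nlrc5, and the immunoproteasome subunits Psmb8, Psmb9 and Psmb10. They were taken by gene name from a count table of 56748 genes, and each name matched 1 row. RNA-seq had been carried out on SLAM HSCs, hematopoietic stem cells sorted as lineage-negative Sca1+ c-Kit+ CD48- CD150+ bone marrow cells, from female C57BL/6 mice. There were 3 groups with 3 libraries each: young HSCs (yHSCs) of mice aged 6 to 10 weeks, and HSCs of mice aged 14 to 16 months (paHSCs) split by the P-selectin protein (Selp) on their surface into Selp low and Selp high cells. The labels name no engineered allele or agent in any of these libraries. The labels call the libraries biological replicates, and do not say whether marrow of several mice was pooled for a library, so the p-values measure the spread between these libraries.

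MHC class I molecules carry short peptides from proteins made inside the cell to its surface, where CD8 T cells read them and where natural killer cells sense their absence. The proteasome cuts the peptides, the transporter TAP carries them into the endoplasmic reticulum, and Tapbp (tapasin) holds the empty heavy chain and B2m next to TAP until a peptide fits. Nlrc5 binds class I promoters together with other factors and raises their transcription, and interferon-gamma raises the expression of almost the whole set, immunoproteasome included. Nearly all nucleated cells carry class I, hematopoietic stem cells among them, and mature lymphocytes carry much of it.

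The libraries held 24866975 to 35375310 counts each. Selp mRNA, which checks the sort, had 278 to 713 CPM (counts per 1000000, here relative to total counts) in the Selp high libraries, 15.97 to 118 CPM in the Selp low libraries and 24.4 to 36.7 CPM in the yHSC libraries. Some libraries stood apart in markers of other cells. All later CPM are after TMM scaling, a factor per library that adjusts for composition. In Selp low replicates 1 and 2, the B-cell gene Cd79a had 2499 and 4251 CPM against 8.74 to 178 CPM in the other 7 libraries, the class II gene Cd74 had 13510 and 24660 CPM against 138 to 1474 CPM, the 5 T-cell genes summed to 172 and 488 CPM against 3.28 to 18.2 CPM, and Cd48, a protein absent from the sorted phenotype, had 175 and 310 CPM against 11.6 to 38.7 CPM. In Selp low replicate 2 the 10 most abundant genes took 44.8% of all counts and its TMM factor was 0.545, with 98850 CPM of 4 plasma cell genes against at most 3228 CPM elsewhere, whereas Selp low replicate 3 and yHSC replicate 1 had the most counts of 6 neutrophil genes, 189900 and 62800 CPM summed. The 6 B-cell genes, immunoglobulin included, summed to 9101 and 170400 CPM in Selp low replicates 1 and 2, 8768 CPM in Selp high replicate 2 and 403 to 1950 CPM in the others. The 9 HSC marker genes summed to 1488, 1294 and 797 CPM in the Selp low libraries, 1019, 1980 and 2275 CPM in the yHSC libraries and 2126 to 3066 CPM in the Selp high libraries. In bulk samples, fewer cells of a type and less RNA per cell cannot be told apart.

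The files placed 7 of the 10 genes on chromosome 17 in the MHC (build mm39). H2-K1 (ENSMUSG00000061232) lay at chr17:34214991-34219321 and H2-D1 (ENSMUSG00000073411) at chr17:35481706-35486475, with Tapbp (ENSMUSG00000024308) at chr17:34134873-34148266. Psmb9, Tap1, Psmb8 and Tap2 stood next to each other, from the start of Psmb9 (ENSMUSG00000096727, chr17:34400961-34406738) over Tap1 (ENSMUSG00000037321, chr17:34406527-34416199) and Psmb8 (ENSMUSG00000024338, chr17:34416695-34420428) to the end of Tap2 (ENSMUSG00000024339, chr17:34422501-34435295). B2m (ENSMUSG00000060802) lay at chr2:121978167-121983564, and Nlrc5 (ENSMUSG00000074151, chr8:95160984-95253900) and Psmb10 (ENSMUSG00000031897, chr8:106662367-106665076) both on chromosome 8. The Psmb9 and Tap1 genes lay on opposite strands and overlapped by 212 bases. Without strand information, reads in an overlap cannot be assigned to either gene.

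Because these genes share known promoter elements, the sequence before their transcription starts is shown for the genes with the most such elements. RefSeq promoter windows (GRCm38.p6, an earlier build than that of the counts) were matched by symbol for 8 of the 10 genes, not for Tap2 and Nlrc5. H2-K1 had windows for 2 starts, chr17:34000284-34000583 with 2 CCAAT matches and chr17:34000298-34000597 with 1. The former is shown, and the distances from the H2-K1 start depend on this choice. In the 250 bases before the start, 4 motifs were searched on both strands: GAAANNGAAA, a form of the element bound by interferon regulatory factors, GGGNNNTNCC, a form of the NF-kappaB element, TGACGC, the core of site alpha, and CCAAT, the box bound by NF-Y. Capitals mark every match. The H2-K1 stretch is chr17:34000334-34000483 (minus strand), the H2-D1 stretch chr17:35262898-35263047, the B2m stretch chr2:122147537-122147686 and the Tap1 stretch chr17:34187306-34187555 (all 3 on the plus strand).
H2-K1: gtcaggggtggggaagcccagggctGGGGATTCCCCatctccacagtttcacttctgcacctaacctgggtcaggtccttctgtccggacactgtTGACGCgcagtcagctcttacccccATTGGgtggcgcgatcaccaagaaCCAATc
H2-D1: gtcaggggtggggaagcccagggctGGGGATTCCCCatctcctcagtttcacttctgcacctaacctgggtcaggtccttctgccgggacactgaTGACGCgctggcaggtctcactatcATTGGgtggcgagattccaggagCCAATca
B2m: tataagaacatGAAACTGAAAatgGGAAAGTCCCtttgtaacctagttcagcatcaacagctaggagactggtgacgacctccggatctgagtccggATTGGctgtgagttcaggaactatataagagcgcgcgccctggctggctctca
Tap1: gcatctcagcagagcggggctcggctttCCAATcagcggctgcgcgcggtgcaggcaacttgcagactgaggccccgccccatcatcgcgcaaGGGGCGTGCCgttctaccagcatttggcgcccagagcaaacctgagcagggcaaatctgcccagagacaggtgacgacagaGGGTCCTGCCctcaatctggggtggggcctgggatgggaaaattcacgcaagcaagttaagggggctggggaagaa

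The H2-K1 and H2-D1 stretches, set side by side with a shift of 46 bases relative to their starts and no gaps, were alike at 126 of 150 bases (84.0%). Both held GGGNNNTNCC (matched in a pair of overlapping frames), TGACGC and CCAAT in the same order. B2m held GAAANNGAAA 139 bases and GGGNNNTNCC 126 bases before its start, the latter on the other strand, as was a CCAAT box. The windows of Tap1 and Psmb9 shared 275 of their 300 bases, so both genes are read from the same short region in opposite directions and the same matches belong to both. Of the 8 genes with a window, 5 held GGGNNNTNCC (14.9% of the 32851 windows in the RefSeq table did), 6 held CCAAT (33.8%), 2 held TGACGC (6.12%), and 1, B2m, held GAAANNGAAA (2.98%). The windows of Psmb8 and Psmb10 held none of these letters. Other forms of the elements were not searched, so a window without a match may still hold such an element.

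H2-K1, H2-D1 and B2m, the chains of the class I molecule itself, were among the most abundant mRNAs of these cells. H2-D1 ranked between 1 and 19 by count among all genes in the 9 libraries, B2m between 3 and 17, and H2-K1 between 5 and 43. B2m had 2896, 2521 and 2933 CPM in the 3 yHSC libraries, 5728, 11780 and 4518 CPM in the Selp low libraries and 5168, 3720 and 3345 CPM in the Selp high libraries. Every paHSC library lay above every yHSC library. Selp low and Selp high libraries overlapped, with the Selp high library the lower in each same-numbered pair.

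H2-D1 had 2588, 2861 and 3282 CPM in yHSCs, 5759, 9857 and 3839 CPM in Selp low cells and 6608, 2982 and 3603 CPM in Selp high cells. The Selp low libraries did not overlap with yHSCs, but Selp high replicate 2 lay within the yHSC range. Relative to total counts, without TMM scaling, H2-D1 in Selp low replicate 3 lay below all 3 yHSC libraries. H2-K1 had 1577, 2441 and 2446 CPM in yHSCs, 3558, 7207 and 1921 CPM in Selp low cells and 4038, 2254 and 2231 CPM in Selp high cells. Thus Selp low replicates 1 and 2 and Selp high replicate 1 carried the highest values of all 3 chains, and the other libraries of both paHSC groups lay within or near the yHSC range for the heavy chains.

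Between Selp low cells and yHSCs the log2 fold changes were 1.46 ± 0.48 (SE) for B2m, 1.22 ± 0.46 for H2-D1 and 1.05 ± 0.55 for H2-K1, with edgeR adjusted p-values of 0.354, 0.387 and 0.543, so none passed the test. Between Selp high cells and yHSCs they were 0.52 ± 0.25, 0.57 ± 0.33 and 0.38 ± 0.32 (edgeR adjusted p = 0.734, 0.833 and 0.955). Between Selp high and Selp low cells they were -0.86 ± 0.51, -0.57 ± 0.54 and -0.59 ± 0.58 (edgeR adjusted p = 0.538, 0.698 and 0.712). Class I heavy chain genes are known to be alike over long stretches of sequence, and how the counting treated reads that fit several of them is not given in the sources used here. Summing the 16 class I heavy chain genes into 1 count, which removes any effect of dividing reads among them but recovers none that were discarded, gave log2 fold changes of 1.13 ± 0.52 (Selp low over yHSC), 0.50 ± 0.31 (Selp high over yHSC) and -0.54 ± 0.58 (Selp high over Selp low), with edgeR adjusted p-values of 0.484, 0.865 and 0.736.

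**Figure D1:**
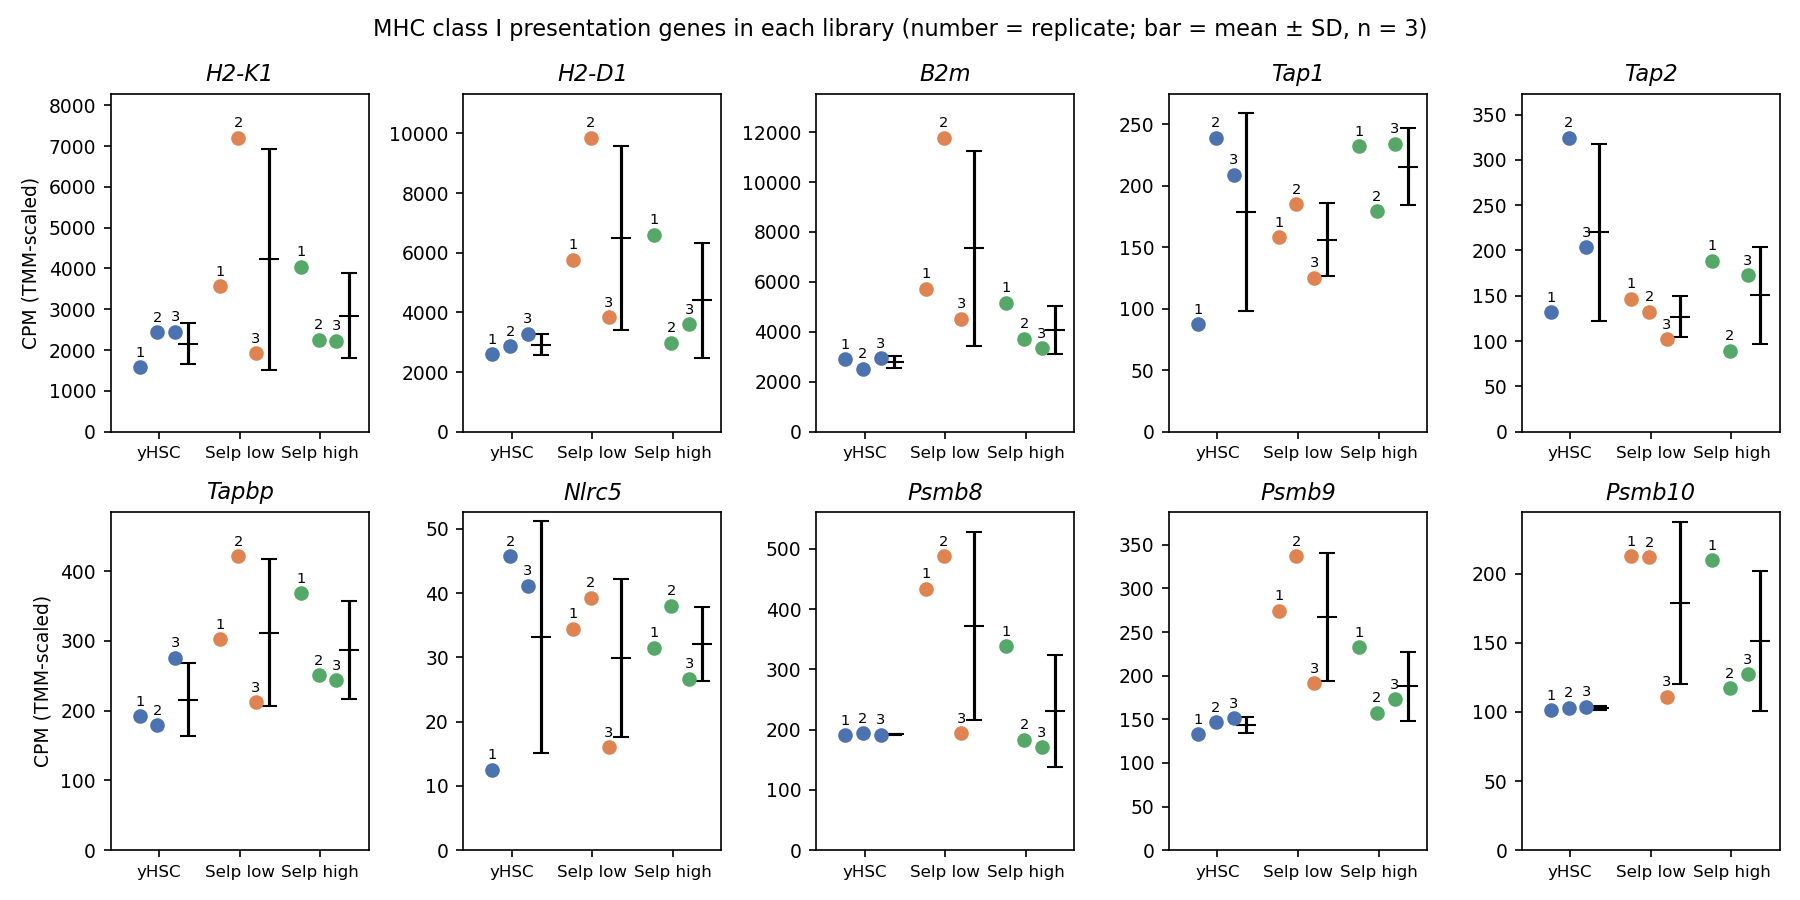
CPM after TMM scaling (y axis, linear) of each of the 10 genes in each library, by group (x axis), with the replicate number over each point and the mean ± SD of 3 libraries beside the points. Selp low replicates 1 and 2 and Selp high replicate 1 are the highest 3 points for H2-K1, H2-D1, B2m, Tapbp, Psmb8, Psmb9 and Psmb10, while Tap2 and Nlrc5 are highest in yHSC replicate 2 (325 and 45.8 CPM), as is Tap1 (239 CPM).

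The immunoproteasome subunits replace the 3 catalytic subunits of the standard proteasome, Psmb8 in place of Psmb5, Psmb9 in place of Psmb6 and Psmb10 in place of Psmb7, and shift the peptides made toward ends that class I can bind. Psmb8 had 191, 194 and 191 CPM in yHSCs, 434, 488 and 194 CPM in Selp low cells and 338, 183 and 171 CPM in Selp high cells. The coefficient of variation between libraries was 0.709% in yHSCs, 42.0% in Selp low and 40.4% in Selp high cells. Selp low replicate 3 was just above the highest yHSC library, and Selp high replicates 2 and 3 were below all 3. Relative to total counts, Selp low replicate 3 lay below all 3 yHSC libraries and Selp high replicate 2 within their range.

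Psmb9 had 133, 147 and 151 CPM in yHSCs, 274, 337 and 191 CPM in Selp low cells and 233, 158 and 173 CPM in Selp high cells. Psmb10 had 101.2, 103 and 104 CPM in yHSCs, 213, 212 and 111 CPM in Selp low cells and 210, 117 and 127 CPM in Selp high cells. For both genes all 6 paHSC libraries lay above all 3 yHSC libraries after TMM scaling. Relative to total counts, however, Selp low replicate 3 lay below all 3 yHSC libraries for both. The log2 fold changes of Selp low cells over yHSCs were 1.01 ± 0.39 for Psmb8, 0.95 ± 0.29 for Psmb9 and 0.85 ± 0.32 for Psmb10, with edgeR adjusted p-values of 0.398, 0.337 and 0.384. Those of Selp high cells over yHSCs were 0.24 ± 0.31, 0.36 ± 0.24 and 0.53 ± 0.28 (edgeR adjusted p = 0.998, 0.884 and 0.809), and those of Selp high over Selp low cells were -0.70 ± 0.45, -0.52 ± 0.31 and -0.25 ± 0.37 (edgeR adjusted p = 0.564, 0.537 and 0.815).

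The standard subunits were compared in the same libraries. Psmb5 had 93.7, 72.4 and 79.6 CPM in yHSCs, 146, 222 and 230 CPM in Selp low cells and 127, 123 and 135 CPM in Selp high cells, so that no pair of groups overlapped. Its log2 fold changes were 1.32 ± 0.27 (Selp low over yHSC), 0.61 ± 0.22 (Selp high over yHSC) and -0.64 ± 0.26 (Selp high over Selp low), with edgeR adjusted p-values of 0.332, 0.545 and 0.387. The ratio of Psmb8 to Psmb5 counts was 2.37 ± 0.32 (SD, n = 3) in yHSCs, 2.01 ± 1.08 in Selp low cells and 1.81 ± 0.75 in Selp high cells. In Selp low cells it ran from 0.843 in replicate 3 to 2.98 in replicate 1.

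The ratio of Psmb9 to Psmb6 was 0.650 ± 0.167 (SD, n = 3) in yHSCs, 0.634 ± 0.140 in Selp low cells and 0.736 ± 0.083 in Selp high cells. That of Psmb10 to Psmb7 was 2.86 ± 0.19, 3.23 ± 1.81 and 3.29 ± 1.34, again lowest in Selp low replicate 3 (1.26). An exact two-sided permutation test over all 1680 assignments of the libraries to the groups, on the log2 ratio, gave p = 0.661, 0.614 and 0.986 for the 3 ratios, and 0.986 for each after Benjamini-Hochberg adjustment over the 3. The smallest p this design allows is 0.00357. No difference in these ratios among the 3 groups was detectable over this spread, and pairs of groups were not tested on their own.

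**Figure D2:**
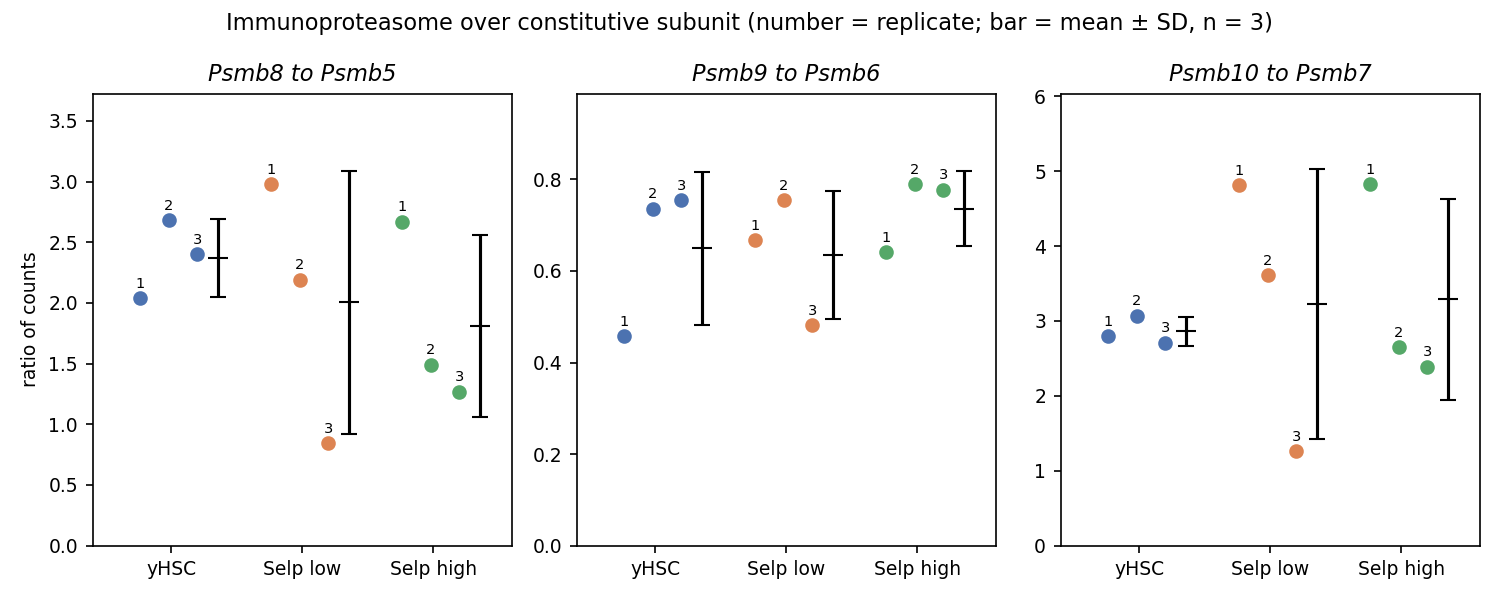
Ratio of the counts of each immunoproteasome subunit to those of the standard subunit it replaces (y axis, from 0) in each library, by group (x axis), with the replicate number over each point and the mean ± SD of 3 libraries beside them. The 3 groups overlap for each pair, and Selp low replicate 3 has the lowest ratio for Psmb8 to Psmb5 (0.843) and for Psmb10 to Psmb7 (1.26).

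The subunits of the transporter followed another order over the libraries. Tap1 had 87.4, 239 and 209 CPM in yHSCs, 158, 185 and 125 CPM in Selp low cells and 232, 179 and 234 CPM in Selp high cells, so that the lowest and the highest of the 9 values were both in yHSCs. Tap2, its partner in the transporter, had 132, 325 and 204 CPM in yHSCs, 147, 132 and 102 CPM in Selp low cells and 189, 89.3 and 173 CPM in Selp high cells. All groups overlapped for both genes. Tapbp had 192, 179 and 276 CPM in yHSCs, 302, 422 and 212 CPM in Selp low cells and 369, 251 and 243 CPM in Selp high cells, and its groups overlapped as well, although its highest 3 libraries were those of the chains.

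In log2 fold changes, Tap1 differed by -0.12 ± 0.39 (SE) between Selp low cells and yHSCs, 0.25 ± 0.37 between Selp high cells and yHSCs and 0.45 ± 0.26 between Selp high and Selp low cells (edgeR adjusted p = 0.986, 0.998 and 0.524). Tap2 gave -0.73 ± 0.36, -0.59 ± 0.42 and 0.23 ± 0.34 in the same order (edgeR adjusted p = 0.514, 0.902 and 0.812), and Tapbp 0.59 ± 0.35, 0.40 ± 0.27 and -0.13 ± 0.35 (edgeR adjusted p = 0.600, 0.887 and 0.906). Psmb9 and Tap1, which share their promoter region, did not keep a fixed ratio. There were 0.613 to 1.52 counts of Psmb9 for each count of Tap1 in yHSCs, 1.53 to 1.82 in Selp low cells and 0.739 to 1.00 in Selp high cells, and the Selp low libraries lay above all others. Tapbp lies over Zbtb22 by 3422 bases on the same strand, a gene with at most 1635 counts in a library where Tapbp had at least 5644.

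Nlrc5, the transactivator of class I genes, was the least abundant of the 10, with 368 to 1973 counts per library. It had 12.5, 45.8 and 41.1 CPM in yHSCs, 34.4, 39.3 and 15.98 CPM in Selp low cells and 31.5, 38.0 and 26.7 CPM in Selp high cells. Its group means were 33.1 ± 18.0, 29.9 ± 12.3 and 32.1 ± 5.7 CPM (SD, n = 3), and the log2 fold changes lay between -0.07 and 0.09 with SE of 0.39 to 0.54, so a moderate difference in either direction was not detectable. It overlaps the lncRNA gene 9330175E14Rik by 748 bases on the opposite strand, which had up to 334 counts.

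Levels were also taken per kilobase of the gene length given by the authors, whose definition is not stated in the sources used here. That length was 3381 bases for Psmb8, nearly its whole locus (chr17:34416695-34420428), so the order between genes is uncertain where values are near. On this scale the order of the mean levels was the same at the top and bottom in every group. In yHSCs B2m stood at 3236 CPM per kb, H2-D1 at 1129 and H2-K1 at 734, then Psmb10 at 60.3, Tapbp at 59.5, Tap2 at 58.2, Psmb8 at 56.8, Psmb9 at 39.2, Tap1 at 32.6 and Nlrc5 at 3.90. Psmb10 lay above Psmb8 in each yHSC library, Tapbp and Tap2 spread over both, and Psmb9 and Tap1 overlapped. In Selp low cells Psmb8 (110 CPM per kb) and Psmb10 (105 CPM per kb) followed the chains, and Tap2 (33.6 CPM per kb) and Tap1 (28.5 CPM per kb) were the lowest but for Nlrc5 (3.52 CPM per kb). In Selp high cells Psmb10 (88.9 CPM per kb) and Tapbp (79.3 CPM per kb) followed the chains.

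Over the 10 genes, none was called by edgeR, or by DESeq2 on all libraries and all genes with a count, that is, had an adjusted p up to 0.05 with a log2 fold change of 1 or more in size, in any of the 3 comparisons. For Selp high over Selp low cells edgeR called 0% of 20370 genes tested and DESeq2, the tool of the study, 2.46% of its genes, and 0 of the 10 by either. At an unadjusted edgeR p under 0.05, 0 of the 10 were higher (6.88% of all genes were) and 0 lower (5.67%), and the libraries of all 10 overlapped (10.3% of all genes were higher and 10.7% lower without overlap). The median log2 fold change of the 10 was -0.39 beside -0.11 over all genes, with 3 of the 10 positive (Tap1, Tap2 and Nlrc5). Limma with voom quality weights called none of the 10 and 0% of all genes. Same-numbered libraries were also compared, although no source states that they are pairs. Of the 10, 3 (B2m, Psmb8 and Psmb9) were lower in the Selp high library for each number, as were 25.1% of all genes. By number, 0 of the 10 were higher in the Selp high library each time (19.7% of all genes).

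For Selp high cells over yHSCs edgeR called 0.165% of 20017 genes and DESeq2 3.26%, again without any of the 10, and limma with voom weights called 1.37% and none of the 10. At an unadjusted p under 0.05, 0 were higher (4.48% of all genes). The median log2 fold change was 0.37 beside -0.033 over all genes, and 8 of the 10 were positive, all but Tap2 and Nlrc5. The libraries did not overlap and were higher in Selp high cells for 3 of the 10, B2m, Psmb9 and Psmb10, and for 8.53% of all genes. Without Selp high replicate 1 the median of the 10 was 0.16 with 7 positive, and the log2 fold changes were 0.028 for H2-K1, 0.15 for H2-D1, 0.32 for B2m, 0.17 for Psmb9, 0.22 for Psmb10 and -0.15 for Psmb8.

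For Selp low cells over yHSCs edgeR called 0% of 20437 genes and DESeq2 2.63%, with 0 of the 10 by either. Limma with voom quality weights called 1 of the 10, Psmb9 (1.03, limma adjusted p = 0.0497), among 2.11% of all genes, and DESeq2 restricted to the genes past edgeR's filter, a fit added after seeing the data, called 1, B2m (1.43, DESeq2 adjusted p = 0.0281), among 6.13%. Here 5 of the 10 had an unadjusted edgeR p under 0.05 and were higher (7.11% of all genes), namely Psmb9, B2m, Psmb10, H2-D1 and Psmb8, and the libraries of the same 5 did not overlap with yHSCs (9.59% of all genes higher without overlap). None of these passed the edgeR correction over all genes. The median of the 10 was 0.90 beside 0.083 over all genes, and 7 were positive, all but Tap1, Tap2 and Nlrc5. B2m, Psmb9 and Psmb10 were the 3 genes with all 6 paHSC libraries above all 3 yHSC libraries, as in 2.68% of all genes. These orders of libraries are after TMM scaling. Relative to total counts, Selp low replicate 3 lay below all 3 yHSC libraries for H2-D1, Psmb8, Psmb9 and Psmb10, but not for B2m. The comparisons of Selp low and of Selp high cells with yHSCs share their yHSC libraries.

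**Figure D3:**
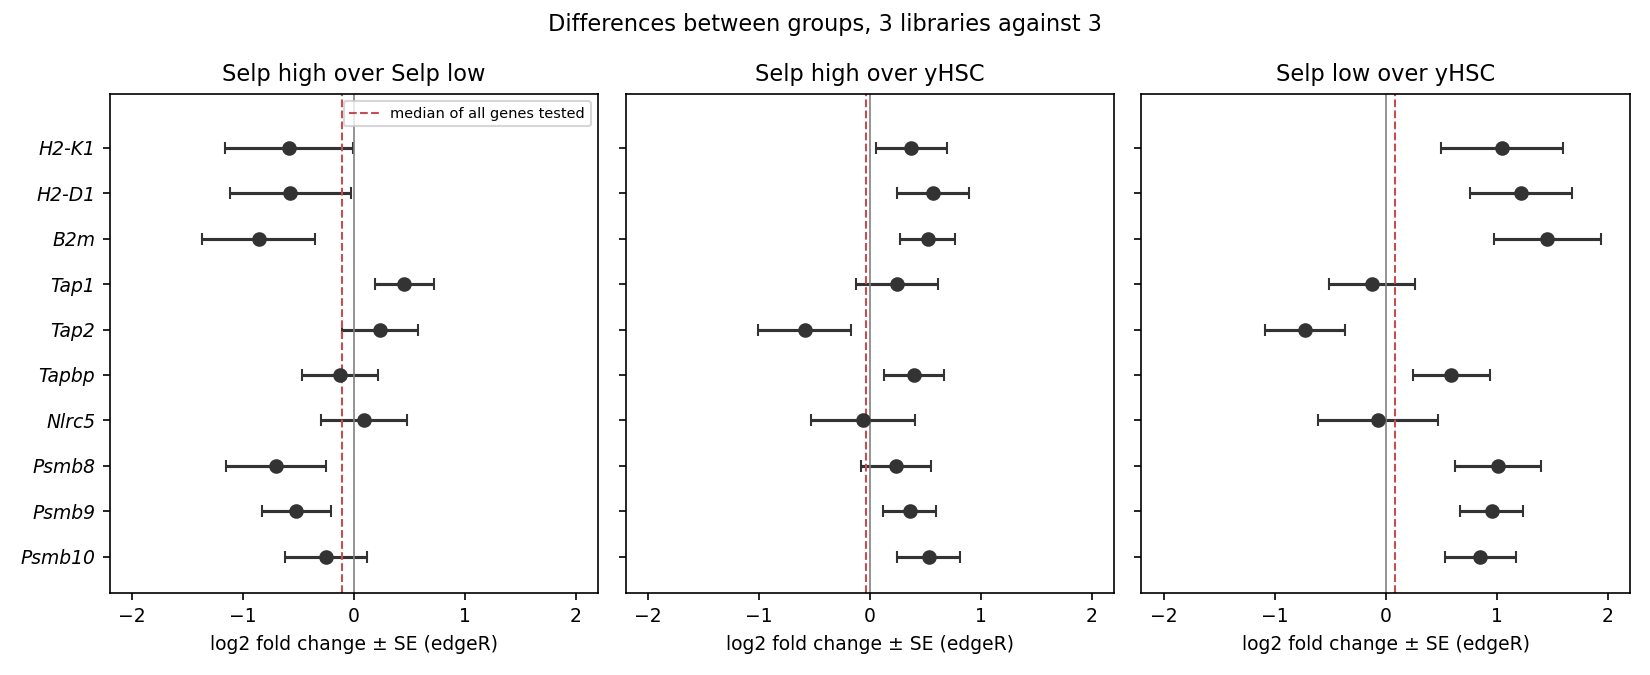
Log2 fold change ± SE from edgeR (x axis) of each of the 10 genes (y axis) in the 3 comparisons, with 3 libraries in each group, a grey line at 0 and a dashed line at the median of all genes tested. No gene passed the test, and in the comparison of Selp low cells with yHSCs the heavy chains, B2m and the immunoproteasome subunits lie between 0.85 and 1.46 while Tap1, Tap2 and Nlrc5 lie below 0.

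The values were recomputed without the libraries that stood apart. Without Selp low replicate 2, the log2 fold changes of Selp low cells over yHSCs were 0.88 for B2m, 0.72 for H2-D1, 0.35 for H2-K1, 0.71 for Psmb8, 0.70 for Psmb9 and 0.66 for Psmb10. Without Selp low replicates 1 and 2, an alternative chosen after the data were seen that leaves 1 Selp low library, the log2 fold changes of Selp low cells over yHSCs were 0.70 for B2m, 0.42 for Psmb9, 0.40 for H2-D1, 0.12 for Psmb10, 0.019 for Psmb8 and -0.16 for H2-K1, and those of Selp high over Selp low cells were positive for 9 of the 10, all but B2m (-0.066). Without Selp low replicate 2 alone, 5 of the 10 were positive between Selp high and Selp low cells. Without Selp low replicate 3, the library with the most neutrophil counts, DESeq2 called 6 of the 10 higher in Selp low cells than in yHSCs, with log2 fold changes of 1.66 for B2m, 1.44 for H2-D1, 1.34 for H2-K1, 1.27 for Psmb8, 1.10 for Psmb9 and 1.06 for Psmb10 (DESeq2 adjusted p from 0.000496 to 0.0392), while edgeR still called 0. That DESeq2 fit called 7.4% of all genes, 1557 in number against 516 with every library. The 2 libraries then left are those with the B-cell and class II counts, whose part in the result was not tested. Without yHSC replicate 1, DESeq2 log2 fold changes of Selp low cells over yHSCs were -0.46 for Tap1, -1.01 for Tap2 and -0.48 for Nlrc5. With every library DESeq2 gave -0.17, -0.78 and -0.11. The other genes of the 10 stayed positive without yHSC replicate 1. None of the 10 was called in that fit, which called 2712 of 25124 genes.

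The 6 B-cell genes had positive log2 fold changes in Selp low cells over yHSCs in 6 of 6 (median 4.67, 4 called by DESeq2 and 0 by edgeR), and the 4 class II genes in 4 of 4 (median 4.74, 4 called by DESeq2 and 0 by edgeR). The class II genes summed to 22910 and 34060 CPM in Selp low replicates 1 and 2, 272 CPM in replicate 3, 746 to 2470 CPM in Selp high cells and 358 to 1050 CPM in yHSCs, and none of the 4 was at 0 in any library. Of the B-cell genes, 1 was at 0 in Selp high replicate 3. In Selp low replicate 3, where Cd79a had 8.74 CPM, B2m, H2-D1, Psmb8, Psmb9 and Psmb10 lay above all yHSC libraries (Psmb8 by the least, 194.1 against 193.6 CPM), and H2-K1, Tapbp, Tap1, Tap2 and Nlrc5 lay within or below the yHSC range. Selp low replicate 3 is also the library with 189900 CPM of neutrophil genes, and its TMM factor was 0.785 against 1.08 to 1.22 in yHSCs. Relative to total counts, only B2m of these genes stayed above all yHSC libraries in it. The 10 genes together took 0.880% of its counts, against 0.938% to 1.11% in yHSCs. In Selp high replicate 1, H2-D1 had 6608 CPM and Psmb8 338 CPM, each above all yHSC libraries. Cd79a had 53.8 CPM there, within the yHSC range of 19.4 to 85.1 CPM. Of the other B-cell genes, Cd79b (119 CPM) and Ighm (1135 CPM) lay above all yHSC libraries, and the rest within or below their range. The 6 B-cell genes summed to 1349 CPM there against 403 to 973 CPM in yHSCs. Cd74 had 1474 CPM in that library, above the yHSC range of 171 to 654 CPM.

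**Figure D4:**
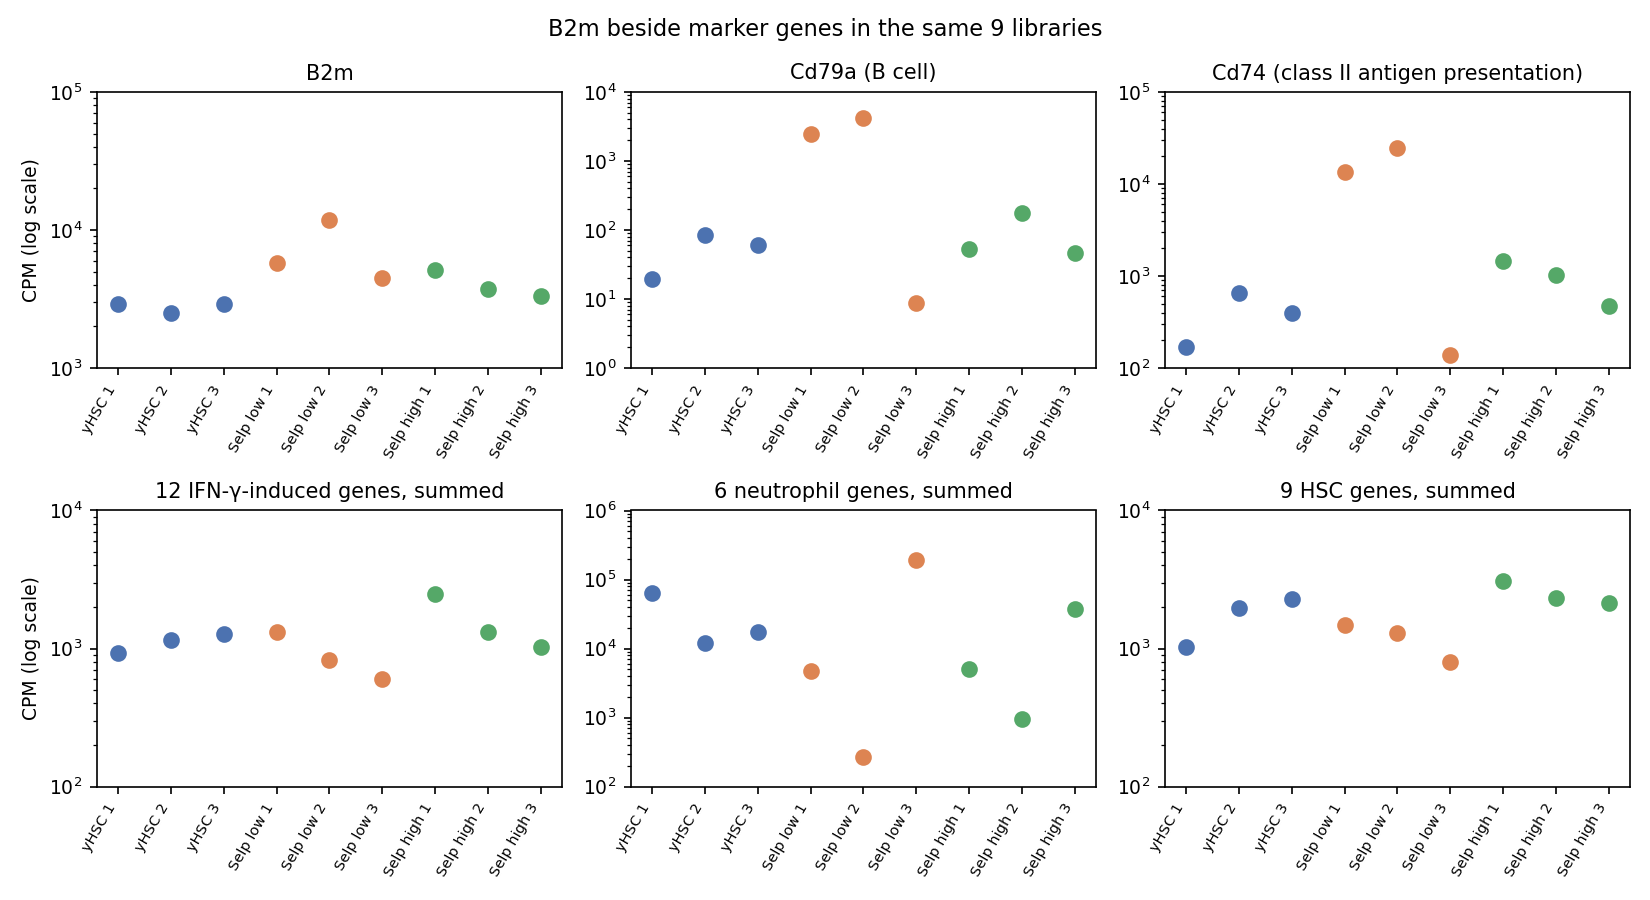
CPM on a log scale (y axis) in the 9 libraries (x axis) of B2m, of the B-cell gene Cd79a, of the class II gene Cd74, and of 12 interferon-gamma-induced, 6 neutrophil and 9 HSC genes, each summed. Selp low replicates 1 and 2 are highest for B2m, Cd79a and Cd74, whereas Selp high replicate 1 is highest for the interferon-gamma-induced genes, at 2483 CPM.

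Genes that interferon-gamma induces had another order over the libraries. The 12 genes of the list summed to 2483 CPM in Selp high replicate 1, 1309 and 1023 CPM in Selp high replicates 2 and 3, 1318, 832 and 597 CPM in Selp low cells and 929, 1152 and 1277 CPM in yHSCs. DESeq2 called 1 of 12 in Selp high cells over yHSCs, Igtp, an immunity-related GTPase, with 375, 287 and 112 CPM in Selp high cells against 68.7 to 88.0 CPM in yHSCs (log2 fold change 1.70, DESeq2 adjusted p = 0.0174), while edgeR called 0 of the 12 (Igtp 1.71 ± 0.44, edgeR adjusted p = 0.290). In that comparison 8 of 12 were positive (median 0.65), 3 of them with an unadjusted edgeR p under 0.05. Between Selp high and Selp low cells 11 of 12 were positive (median 0.70), with 4 at an unadjusted edgeR p under 0.05 and none called by edgeR or DESeq2. Between Selp low cells and yHSCs 4 of 12 were positive (median -0.30) and none was called by either tool, although 1 was lower at an unadjusted edgeR p under 0.05.

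Of the receptors and signal carriers of interferon, 10 genes, and of the peptide supply, 13 genes, none was called in any comparison by edgeR or DESeq2. Psme2, a subunit of the proteasome activator PA28, had a log2 fold change of 1.12 ± 0.31 in Selp low cells over yHSCs (edgeR adjusted p = 0.332). Of 6 genes of loading in the endoplasmic reticulum, none was called in any comparison by edgeR or DESeq2, and Pdia3, the thiol oxidoreductase of the loading complex, stood at 0.91 ± 0.37 in Selp low cells over yHSCs (edgeR adjusted p = 0.427). The 4 genes that control class I at the surface were not called either by the 2 tools.

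Of 14 transcription factors of class I promoters, DESeq2 called Ciita, the class II transactivator and a relative of Nlrc5, alone. Ciita had 115, 152 and 4.84 CPM in Selp low cells, 13.5, 14.9 and 4.39 CPM in Selp high cells and 4.95, 14.8 and 5.78 CPM in yHSCs, so that the libraries high in Cd79a were also those high in Ciita. Its DESeq2 log2 fold changes were 3.43 over yHSCs (DESeq2 adjusted p = 0.0283) and -3.07 in Selp high over Selp low cells (DESeq2 adjusted p = 0.0465). The edgeR adjusted p-values of Ciita were 0.351 and 0.358. Irf1, an interferon-induced activator of class I promoters, had 171, 408 and 357 CPM in yHSCs, 221, 139 and 195 CPM in Selp low cells and 265, 114 and 145 CPM in Selp high cells, with no call by edgeR or DESeq2.

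Among the other 20 class I and class I-like genes, of which 15 or 16 passed the filter on low counts, DESeq2 called H2-Q1 and H2-T3. H2-Q1, of the Qa region, had 6.304, 40.73 and 7.165 CPM in Selp low cells, so most of their mean of 18.1 CPM came from replicate 2. Its mean was 2.40 CPM in Selp high cells and 0.922 CPM in yHSCs (DESeq2 log2 fold change 4.29 for Selp low over yHSC and -2.93 for Selp high over Selp low, adjusted p = 0.000132 and 0.0198). H2-T3, the thymus leukemia antigen, had 30.06, 4.74 and 15.19 CPM in Selp high cells and 6.764, 1.584 and 6.002 CPM in Selp low cells, which overlap. Its means were 16.7 CPM in Selp high cells, 4.78 CPM in Selp low cells and 0.653 CPM in yHSCs (DESeq2 log2 fold change 4.59 for Selp high over yHSC and 2.85 for Selp low over yHSC, adjusted p = 2.51e-07 and 0.0164). In edgeR the adjusted p-values were 0.332 and 0.338 for H2-Q1, and 0.120 and 0.332 for H2-T3. Class I genes are known to be alike over parts of their sequence, so these counts are uncertain, and how far reads were shared between them was not tested.

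Across the 9 libraries part of the 10 genes rose and fell together, described here after their values were seen. Among H2-K1, H2-D1, B2m, Psmb8, Psmb9 and Psmb10 the 15 pairwise correlations of log2 CPM ran from 0.832 to 0.971 (Pearson's r), and Tapbp correlated with them at 0.807 to 0.902. Tap1, Tap2 and Nlrc5 correlated with each other at 0.445 to 0.826 and with those 6 genes at -0.368 to 0.558. These ranges overlap, so Tap1, Tap2 and Nlrc5 did not form a set of their own. The libraries share depth and composition factors, and these values describe 9 libraries only. Outside the 10, the genes with the highest mean correlation to them were Tasp1, the protease taspase (mean r = 0.735, from 0.118 to 0.947), Ly6e (0.719, from -0.012 to 0.947) and Zbp1, a sensor of nucleic acids (0.713, from 0.215 to 0.955).

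**Figure D5:**
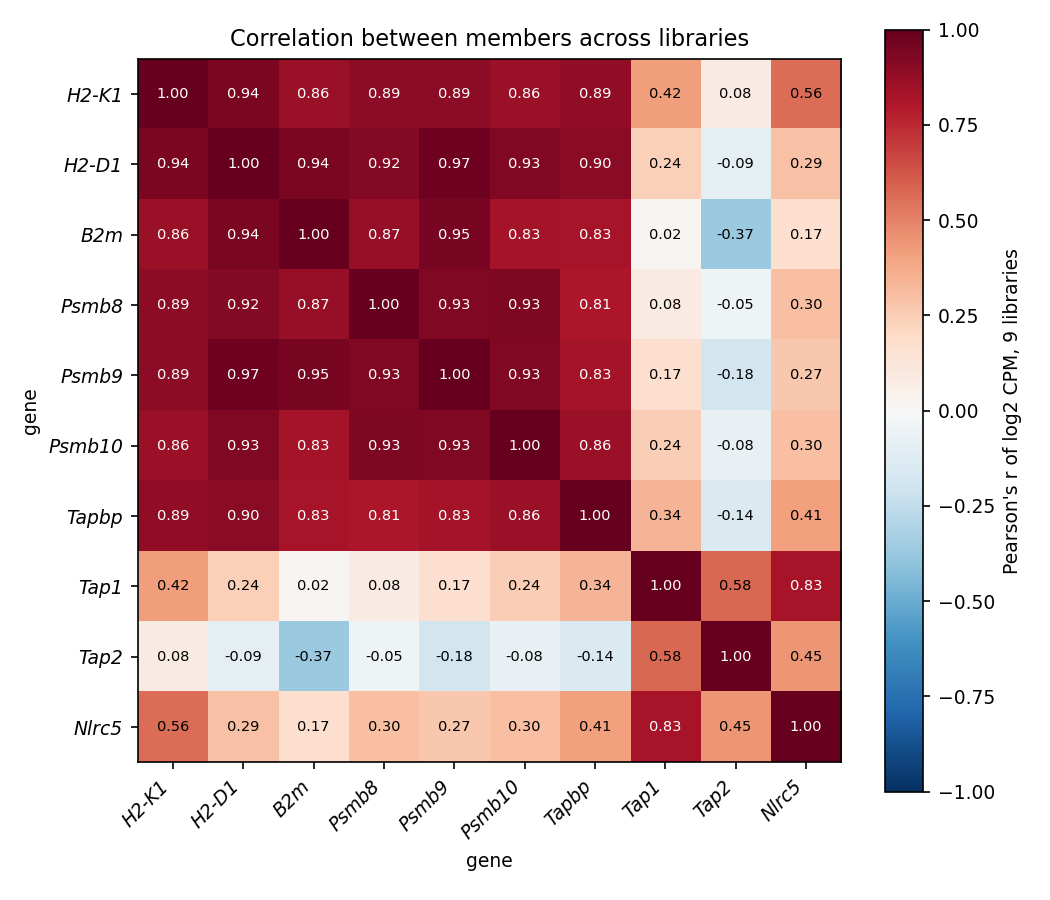
Pearson's r of log2 CPM across the 9 libraries for each pair of the 10 genes (both axes), from blue (-1) over white (0) to red (1). The heavy chains, B2m and the immunoproteasome form a block of 0.832 and above, while Tap1, Tap2 and Nlrc5 lie between -0.368 and 0.558 with that block.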

How the data were processed

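RNA of sorted SLAM HSCs was amplified with the SMARTer Ultra Low kit, made into libraries with a TruePrep kit that does not keep strand, and sequenced. The deposited values are raw counts per gene. Per the labels, the authors' processing notes name CASAVA 1.8, HISAT2 2.2.1, featureCounts 2.0.6, DESeq2 1.42.0 and the build mm39, and the methods name fastp for trimming. Not given in the sources used here were the release of the annotation, whether counting used strand, and how reads matching several genes were treated. Amplified reads carry no molecular identifiers, so depth (24866975 to 35375310 counts per library) bounds counting error only.

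Groups came from the sample titles. For each comparison, its 6 libraries were fitted on their own in edgeR 4.0.16 (filterByExpr, TMM factors, quasi-likelihood test, R 4.3.3) and p-values were adjusted by Benjamini-Hochberg over all genes tested. Genes with an adjusted p up to 0.05 and a log2 fold change of 1 or more in size were called. DESeq2 1.42.0 was run on all genes with a count, with its own filter, and limma 3.58.1 (voom with quality weights) as another alternative. CPM used the TMM factors of all 9 libraries, correlations a prior count of 2, and ratios of subunits 0.5 added to each count. The scripts were tested on simulated data. The authors' files held no column of sample values that was left unused.

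All 10 genes were named with every library's value. From each list, genes called by edgeR or DESeq2 were to be named, otherwise at most 3 with the largest absolute log2 fold change. The members and lists were chosen with earlier results of these data known. Irf1 and Cd79a were named in addition, after their values were seen, and some list genes are not reported here by name. Promoter sequences came from RefSeq (GRCm38.p6), and no coordinates were converted between builds. No source states that replicate numbers pair Selp high with Selp low libraries. Residuals of same-numbered libraries of these groups correlated at 0.199, 0.320 and 0.325, and those of differently numbered libraries at -0.275 to 0.0224. Selp high replicate 1 and yHSC replicate 2, from mice of different ages, reached 0.45, so such correlations cannot establish a pairing. With yHSCs the same-numbered correlations were -0.408, -0.402 and 0.0255 for Selp high and 0.0874, 0.0185 and 0.0678 for Selp low cells.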

Additional observations from a re-analysis of the deposited data

How the results depend on the processing

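None of the 10 genes was called by edgeR in any comparison under other scaling factors (RLE, upper quartile, without immunoglobulin and T-cell receptor genes), other filters, a fit of all 9 libraries, a robust or newer dispersion setting, or with any 1 library left out. For Selp low cells over yHSCs, voom with quality weights called 1 (Psmb9, log2 fold change 1.03, limma adjusted p = 0.0497, with 2.11% of all genes called), DESeq2 on the genes past filterByExpr, added after seeing the data, called 1 (B2m, 1.43, DESeq2 adjusted p = 0.0281, with 6.13% of all genes called), and the count of DESeq2 calls ran from 0 to 6 with single libraries left out. With the replicate block, 0 of the 10 were called between Selp high and Selp low cells, and 3 were positive as without it. Whether the numbers pair the libraries of these groups is not stated. All calls there went from 0 to 9 by edgeR and from 608 to 2180 by DESeq2. Against yHSCs the libraries share only a number. The block fit there called 0 of the 10 in both comparisons, with 9 (Selp high) and 7 (Selp low) positive values, turned Nlrc5 for Selp high over yHSC to 0.10 (edgeR) and 0.088 (DESeq2), and took the edgeR calls over all genes for Selp high over yHSC from 33 to 0.

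Between Selp high and Selp low cells the count of positive values ran from 2 to 5 with single libraries left out and was 9 without Selp low replicates 1 and 2, when H2-K1 turned to 0.65, H2-D1 to 0.28, Tapbp to 0.52, Psmb8 to 0.34, Psmb9 to 0.055 and Psmb10 to 0.53. Against yHSCs H2-K1 then turned to -0.16 and Tapbp to -0.027. Nlrc5 between Selp high and Selp low cells was -0.15 with voom and -0.090 without Selp low replicates 2 and 3. With single libraries left out, the sign turned for H2-K1 (from -0.93 to 0.062), Tapbp (from -0.34 to 0.18) and Nlrc5 (from -0.21 to 0.35) between Selp high and Selp low cells, for Tap1 (from -0.066 to 0.56), Nlrc5 (from -0.44 to 0.29) and Psmb8 (from -0.15 to 0.44) between Selp high cells and yHSCs, and for Tap1 (from -0.51 to 0.12) and Nlrc5 (from -0.53 to 0.21) between Selp low cells and yHSCs. The cause was not tested. The p-values of the 3 subunit ratios stayed above 0.05 in all 30 alternatives. Depth set no tight limit on these genes, which had at least 368 counts in each library.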
